A study of Mus musculus with 16 samples.

Results

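Cytosolic and mitochondrial heat shock proteins were followed on 16 arrays of mouse mast cells and the exosomes they release, with and without oxidative stress. The group holds 41 genes, chosen by name: HSP70, HSP110, HSP90, HSP60 and HSP10 chaperones, small heat shock proteins, J proteins, cofactors of HSP70 and HSP90, and regulators of the heat shock response. A gene was measured by the probe sets that carry its symbol and no other, and 38 of the 41 had such a probe set, 96 in all, out of 18193 genes with such probe sets and 45037 probe sets tested. Hsp90ab1 and Hsf1 were not analysed here, and Ptges3 was left out because its probe sets also carry the symbol of its pseudogene Ptges3-ps. Where a gene had several probe sets, that of the highest mean percentile rank over the 16 arrays represents it.

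The arrays form 4 groups of 4. RNA came from MC/9 cells, a mouse mast cell line, kept under normal conditions (norm cell) or exposed to 125 µM H2O2 for 24 h (oxi cell), and from exosomes of the same conditions (norm exo and oxi exo), cleared through a 0.22 µm filter and spun down at 120000 g over 70 min. All groups share the cell line and the medium, which held FBS and Rat T-Stim, both spun at high speed beforehand to clear their own exosomes, by the methods. By the sample labels, the cells were recipients of exosomes of either condition. The methods instead describe donor cells given vehicle or H2O2, which is how the groups are read here. Every array has a replicate number from 1 to 4. It is not stated for all of them whether they were separate cultures, so that the p-values measure the spread between these samples, which may be technical.

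Heat shock proteins are chaperones, which hold unfolded chains, help them to fold or pass them on to be degraded. HSP70 binds short exposed stretches of a chain, J proteins bring the chain and start the ATP cycle of HSP70, nucleotide exchange factors such as HSP110 and Bag1 end it, and HSP90 acts late in folding, mainly on kinases and receptors, while HSP60 and HSP10 form a closed chamber for folding in the mitochondrial matrix. Transcription of many of these genes is raised by heat shock factor 1 (HSF1), which binds inverted repeats of the bases GAA upstream of them when proteins are damaged, and oxidants are among its known triggers.

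The repeats can be read in the promoters of some members. All promoters shown hold a match, and they do not stand for the called members as a set. The 215 bases between the opposed starts of Hspe1 and Hspd1, which share a bidirectional promoter, are shown because both genes were called in the cells. The bases upstream of Dnajb6 are shown because it stayed above background on all exosome arrays, those of Hsph1 because it had the largest log2 change among the members called in cells, and those of Hspa1a and Hspa1b because these are the classical stress-inducible HSP70 genes. The sequences are from RefSeq (build GRCm38.p6), 5′ to 3′ on the strand given, and capitals mark the matches. Those of Hsph1, Hspa1a and Hspa1b are to GAANNTTC or TTCNNGAA, the shorter motif, and those of the others are to a longer motif, in which GAANNTTC is followed by NNGAA, or TTCNNGAA by NNTTC.
Hspe1 and Hspd1, chr1:55087933-55088147 (+, the strand of Hspe1): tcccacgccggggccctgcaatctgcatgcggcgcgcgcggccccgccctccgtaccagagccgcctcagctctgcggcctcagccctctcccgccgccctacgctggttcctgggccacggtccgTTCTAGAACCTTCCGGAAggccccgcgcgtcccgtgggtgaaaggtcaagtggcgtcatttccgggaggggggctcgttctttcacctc
Dnajb6, chr5:29735798-29735897 (+): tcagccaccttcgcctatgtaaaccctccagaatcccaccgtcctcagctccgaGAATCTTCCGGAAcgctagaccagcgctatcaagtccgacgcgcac
Hsph1, chr5:149636337-149636416 (-): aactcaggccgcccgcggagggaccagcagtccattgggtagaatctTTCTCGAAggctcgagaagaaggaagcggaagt
Hspa1a, chr17:34972227-34972286 (-): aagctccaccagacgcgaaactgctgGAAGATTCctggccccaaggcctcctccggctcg
Hspa1b, chr17:34959309-34959368 (-): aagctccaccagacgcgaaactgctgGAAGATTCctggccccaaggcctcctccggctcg
The stretches of Hspa1a and Hspa1b have the same letters, and over the 250 bases before the start 247 positions were identical. Of the 41 members, 33 had a promoter of 250 bases before and 50 after the start in the RefSeq table used. Only the 250 bases before the start were searched for the motifs. The longer motif, searched on both strands, was found in 3 of the 33 (Hspd1, Hspe1 and Dnajb6) and in 0.466% of the 32851 promoters, or 0.514% of the 27025 genes, in the table. The shorter motif, which every longer match contains, was found in 12 of the 33, in 12.8% of all promoters and in 14.5% of all genes. Of the members called in cells, Hspd1, Hspe1 and Hsph1 had a match. No match was found for Chordc1, Trap1, Bag1, Hspa9, Stip1, Hsbp1, Hspa13 and Dnaja2, nor for Hspa8, though some may lack a promoter there. The other members with a match (Dnajb6, Dnajb4, Dnaja1, Hspb1, Fkbp4, Cdc37, Stub1, Hspa1a and Hspa1b) were not called in cells by the probe set that represents them. A match is a description of the letters in this window and not a measurement of binding.

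The files hold no detection calls, and a background was therefore set for each array as the 95th percentile over 193 probe sets for 165 genes of other tissues, such as odorant receptors and hair keratin-associated proteins. A gene counts as detected in a group if none of its 4 arrays fell to the background or under it. The background signal was 14.3 ± 1.06 (SD, n = 4) in norm cell, 11.3 ± 0.818 in oxi cell, 215 ± 23.0 in norm exo and 243 ± 15.2 in oxi exo, and the spiked hybridization controls were 16.8 times brighter in norm exo than in norm cell and 20.2 times brighter in oxi exo than in oxi cell. The signals of each array are scaled to 1 trimmed mean, so that levels of cells and exosomes stand on different scales. Arrays of 1 group correlated at r = 0.913 to 0.925 across probe sets in cells and at 0.533 to 0.625 in exosomes, and the 3' to 5' signal ratio of Gapdh was 0.832 and 0.851 in norm and oxi cell, against 1.64 and 1.89 in norm and oxi exo. Of 12 mast cell markers, 10 were detected in norm cell, with Mcpt4 below background on every array and Tpsab1 above it on 1 of the 4. Of 11 macrophage and neutrophil markers, 2 were detected in norm cell (Csf1r and Cd14) and 4 in oxi cell, where Cd68 and Mpo were added, with a summed signal of 135 to 168 and of 144 to 184.

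Most of the chaperones were detected in the cells and few in the exosomes. Of the 38 members, 32 were detected in norm cell and 33 in oxi cell, where 44.9% and 45.5% of all probe sets were. In norm exo 6 were detected (Hspa8, Dnaja2, Dnajb6, Trap1, Hsp90aa1 and Cdc37), against 5.17% of all probe sets, and in oxi exo 2 (Hspa8 and Dnajb6), against 3.22%. Since 1 probe set of high rank stands for each gene, the shares over all 96 probe sets of the members compare more directly, and these were 8.33% in norm exo and 2.08% in oxi exo. On the exosome arrays 22 members were above background on none of the norm exo arrays and 29 on none of the oxi exo arrays. In the cells, the stress-inducible Hspa1a, the testis-enriched Hspa1l and Hsf2, a relative of HSF1, were at or under background on all 8 arrays.

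**Figure D1:**
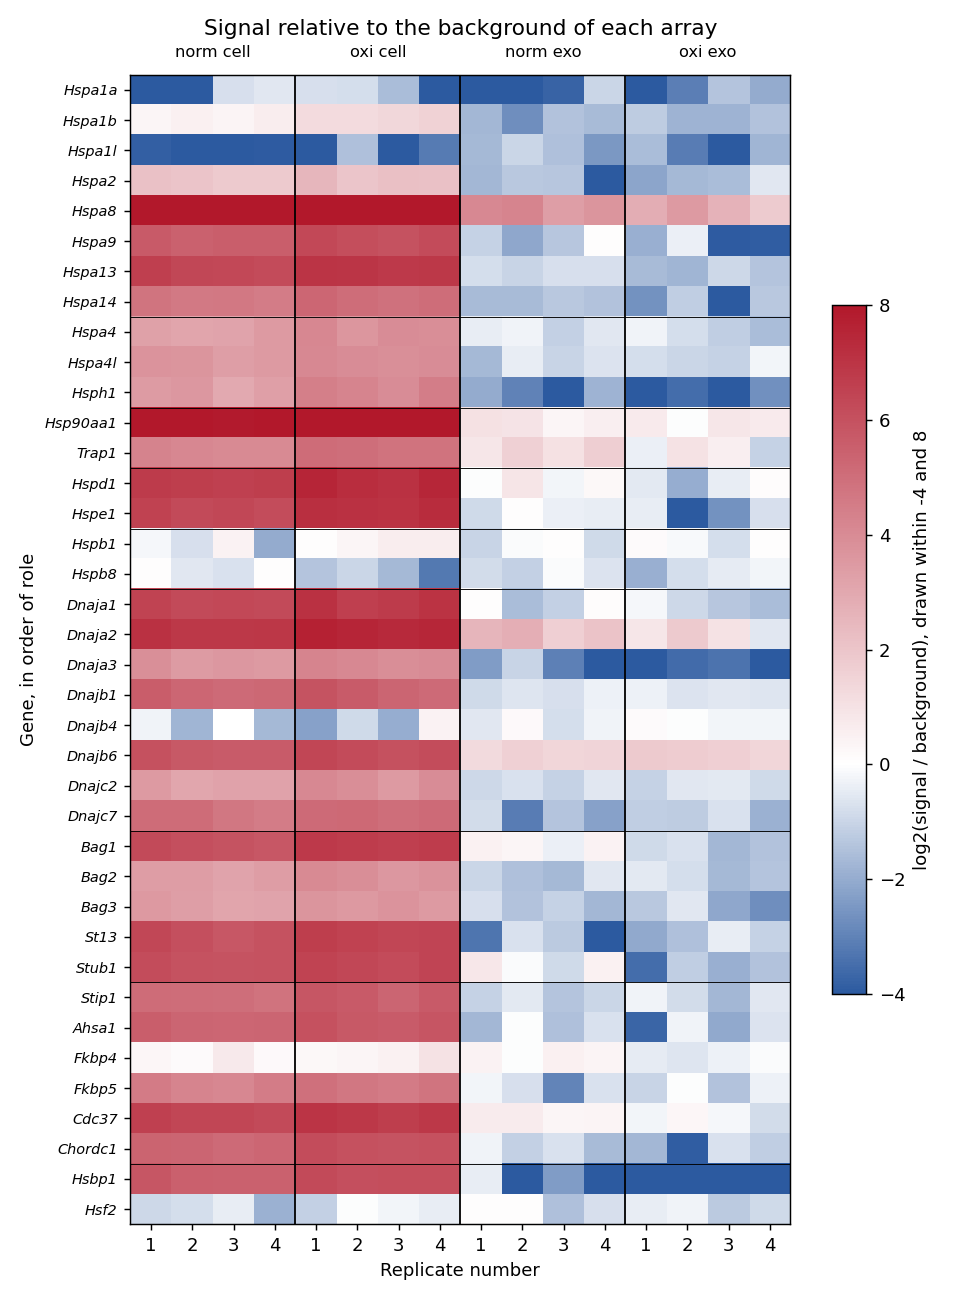
Signal of the 38 measured members (rows, in order of role) over the background of the same array, as log2, on the 16 arrays (columns, replicates 1 to 4 of each group). Red is above and blue below background: 32 members are above it on all norm cell arrays and 33 on all oxi cell arrays, and on the exosome side only Hspa8 and Dnajb6 are red on all 8 arrays.

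The first comparison asked how the chaperone transcripts of the cells changed under H2O2. Of the 38 members, 11 were called higher in oxi cell than in norm cell (limma, adjusted p under 0.05 over all probe sets) and 0 lower, where 4.31% of all probe sets were called higher and 5.51% lower. All 11 were among the 33 members whose mean signal was above background, and of all probe sets of that kind 8.61% were called higher and 10.8% lower. The log2 change was above 0 in 30 members and below 0 in 8, with a median of 0.18, beside a median of -0.15 over all probe sets. The changes were small, between 0.20 and 0.63 on the log2 scale, and they took in the mitochondrial chaperones, HSP110, and cofactors of HSP70 and HSP90, while Hspa8 and Hsp90aa1, the main cytosolic HSP70 and an HSP90, were not called. In bulk RNA, a larger share of cells that carry a transcript and more of it in each cell cannot be told apart. By the paper, the dose of H2O2 used killed a large share of the cells. How this bears on the calls was not tested.

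The chaperones of the mitochondrial matrix gave 4 of the calls. Hspe1, the HSP10 lid of the folding chamber, had signals of 1173, 1102, 1224 and 1068 in norm cell and 1496, 1538, 1597 and 1781 in oxi cell (replicates 1 to 4, as in all such lists). All oxi cell arrays were above all norm cell arrays, and the log2 change was 0.49 (SE 0.07, adjusted p = 0.0011 from limma). Hspd1, the HSP60 that forms the chamber, had 1381, 1458, 1444 and 1527 against 1841, 1697, 1629 and 2031. Its groups did not overlap either, with a log2 change of 0.30 (SE 0.06, adjusted p = 0.00709). These are the genes whose shared promoter is printed above. Trap1, the mitochondrial HSP90, had 245, 253, 251 and 248 in norm cell against 337, 358, 347 and 336 in oxi cell. Both groups were narrow and stood apart, and the log2 change was 0.47 (SE 0.06, adjusted p = 0.00109). Hspa9, the mitochondrial HSP70 (mortalin), which also pulls precursors through the inner membrane, had 663, 628, 697 and 691 against 794, 783, 753 and 848, without overlap and with a log2 change of 0.25 (SE 0.06, adjusted p = 0.0206). The mitochondrial J protein Dnaja3 had a log2 change of 0.12 and was not called (adjusted p = 0.468). The other probe sets of Hspe1 and Trap1 were called higher too (log2 changes 0.49 and 0.42). Of the other 4 of Hspa9, 1 was called higher (0.32) and 3 were not called (-0.37, 0.15 and -0.60). With quantile normalization Hspa9 lost its call.

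Among the cytosolic HSP70 and HSP110 genes the response was uneven. Hsph1, the stress-inducible HSP110, had 139, 168, 117 and 144 in norm cell and 218, 216, 188 and 254 in oxi cell. The groups did not overlap, and its log2 change of 0.63 (SE 0.09, adjusted p = 0.00134) was the largest among the 11 called members. The related Hspa4 and Hspa4l were not called by the probe set that represents them (log2 changes 0.32 and 0.07, adjusted p = 0.0616 and 0.679). Another probe set of Hspa4, however, had 1191, 1171, 1264 and 1302 against 1537, 1409, 1365 and 1495, with a log2 change of 0.24 (adjusted p = 0.0226), and another of Hspa4l had 0.42 (adjusted p = 0.00319). Hspa13, an HSP70 relative found in microsomes, had 1254, 1164, 1184 and 1097 against 1314, 1395, 1368 and 1328, which did not overlap (log2 change 0.20, SE 0.06, adjusted p = 0.0412). Another of its probe sets was called higher too (0.20, adjusted p = 0.0464), and the others were not called (0.04 and 0.08, adjusted p = 0.852 and 0.776).

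Hspa8, the constitutive HSP70 (HSC70), had 7599, 6887, 8649 and 7236 in norm cell and 6425, 7488, 8414 and 7149 in oxi cell. The groups overlapped, and the log2 change was -0.04 (SE 0.06, adjusted p = 0.742) on the deposited scale, 0.18 after quantile normalization and 0.24 relative to the spiked controls. Its 4 probe sets did not move together. Another of them was called lower, with 5100, 5329, 5646 and 5672 against 4554, 4744, 5092 and 4938 (log2 change -0.17, adjusted p = 0.0461). A further one was called higher, with 33.7, 22.7, 39.1 and 39.9 against 52.7, 55.5, 69.7 and 61.5 (log2 change 0.85, adjusted p = 0.00733). Hspa8 has many processed pseudogenes, and both the probe set that represents it and the one called lower are of a kind that can pick up near-identical sequences, so that their values are uncertain.

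The inducible Hspa1b was near background, with 15.9, 21.0, 19.5 and 22.5 in norm cell and 23.8, 26.4, 31.0 and 33.9 in oxi cell. All oxi cell arrays were above all norm cell arrays, yet the log2 change of 0.54 (SE 0.22) was not called (adjusted p = 0.172), and the other probe sets of Hspa1b were above background on no norm cell array. In oxi cell, another probe set of Hspa1b was above background on 3 of the 4 arrays (log2 change 0.25, not called), and the remaining probe set on no array. The transcripts of Hspa1a and Hspa1b are near-identical, so that signal may be shared between them. Hspa2, best known from the testis, had 55.9, 58.2, 53.4 and 52.9 against 56.6, 45.0, 54.5 and 49.7, and Hspa14, an HSP70 relative bound to the ribosome, had 348, 349, 381 and 344 against 387, 376, 361 and 377. Both overlapped between the groups and were not called (log2 changes -0.10 and 0.08, adjusted p = 0.734 and 0.552).

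**Figure D2:**
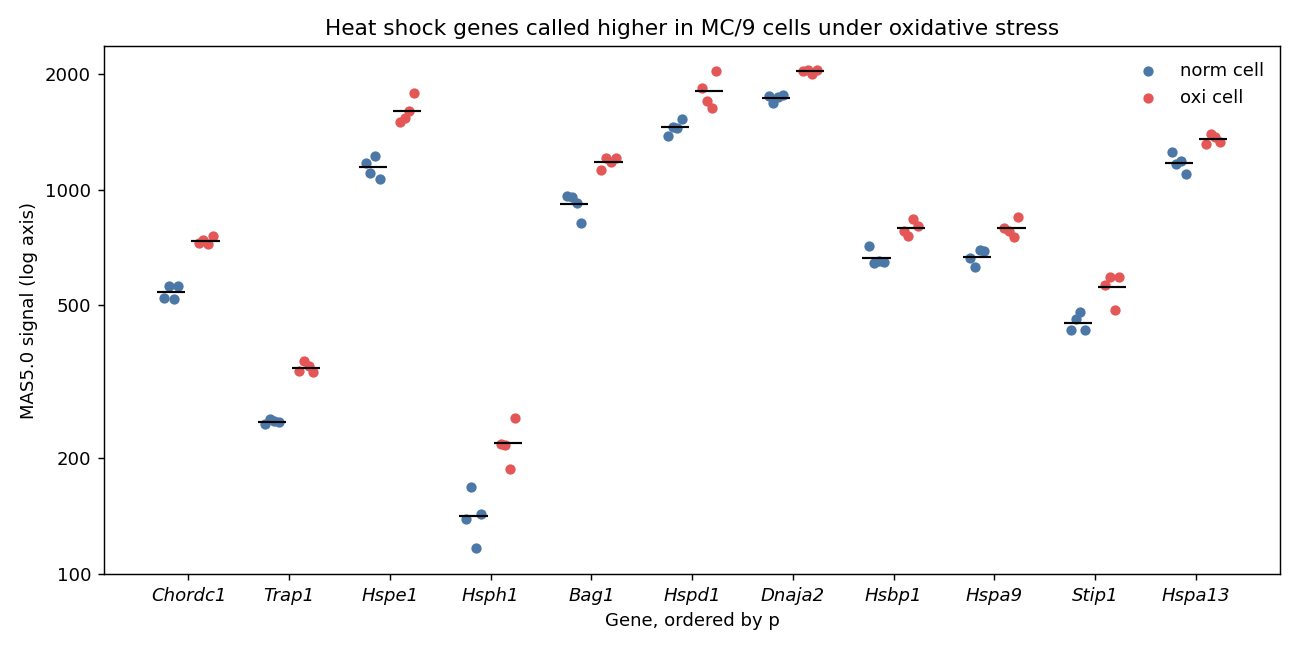
MAS5.0 signals (log axis) of the 11 members called higher in oxi cell, ordered by p, with 1 point per array (4 norm cell in blue, 4 oxi cell in red) and a bar at the mean. In each of the 11 genes the lowest oxi cell array lies above the highest norm cell array, as for Trap1 (336 above 253) and Stip1 (485 above 479).

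Of the 8 J proteins 1 was called, and of the 5 HSP70 cofactors 1. Dnaja2, a cytosolic partner of HSC70, had 1748, 1682, 1740 and 1762 in norm cell and 2032, 2041, 1996 and 2048 in oxi cell. The groups were narrow and apart (log2 change 0.23, SE 0.05, adjusted p = 0.0132). Its other probe sets disagreed, since one was called higher (log2 change 0.37, adjusted p = 0.00364) and one lower (-0.35, adjusted p = 0.0293). Dnaja1 had 1129, 1087, 1178 and 1146 against 1386, 1112, 1299 and 1512, with overlap on replicate 2, and was not called (log2 change 0.22, adjusted p = 0.0601). The heat-inducible HSP40 gene Dnajb1 had 616, 544, 525 and 551 against 609, 567, 476 and 409, with overlapping groups and a log2 change of -0.13 (adjusted p = 0.366). Dnajc2, a J protein of the ribosome, had 140.2, 119, 137 and 137 against 172, 168, 136 and 177 and was not called (log2 change 0.29, adjusted p = 0.095), but another of its probe sets was (0.26, adjusted p = 0.0235). Dnajc7, which binds HSP70 and HSP90 alike, had 426, 478, 387 and 334 against 353, 406, 384 and 404, with a log2 change of -0.06 (adjusted p = 0.754). Dnajb4 was represented by a probe set above background on 1 array of either cell group, and none of its 3 probe sets was called.

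Among the HSP70 cofactors, Bag1, a nucleotide exchange factor, had 964, 954, 923 and 821 in norm cell and 1124, 1205, 1180 and 1206 in oxi cell. Its groups stood apart (log2 change 0.37, SE 0.06, adjusted p = 0.00349). Bag3, a stress-inducible relative of Bag1 in selective autophagy, had 148, 143, 129 and 132 against 129.6, 132, 161 and 129.9, without a call (adjusted p = 0.99). St13 (HIP), which stabilizes the complex of HSP70 with its client, was not called by the probe set that represents it (log2 change 0.15, adjusted p = 0.154), while another was called higher with 0.44 (adjusted p = 0.00141). Stub1 (CHIP), the ubiquitin ligase that marks chaperone clients, had 909, 906, 916 and 918 against 917, 909, 898 and 999, overlapping groups with a log2 change of 0.03 (adjusted p = 0.83). Bag2, which slows that ligase, had 132, 150.3, 135 and 158 against 168, 169, 142 and 159 (log2 change 0.15, adjusted p = 0.349).

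In the HSP90 system, the chaperone of the cytosol was not called and 2 of 6 cofactors were. Hsp90aa1, the inducible cytosolic HSP90, had 3799, 3748, 3521 and 4122 in norm cell and 3689, 3468, 3931 and 4415 in oxi cell. The groups overlapped, with a log2 change of 0.03 (SE 0.06, adjusted p = 0.853). Chordc1, an HSP90-binding protein, had the smallest p of all members, with 522, 560.4, 519.5 and 562 against 725, 739, 721 and 758. The groups did not overlap, and the log2 change was 0.44 (SE 0.05, adjusted p = 0.000644). Stip1 (HOP), which hands clients from HSP70 to HSP90, had 432, 462, 479 and 431 against 565, 591, 485 and 591, a log2 change of 0.30 (SE 0.08, adjusted p = 0.0265) with only a narrow gap between the groups. Ahsa1, which activates the ATPase of HSP90, had 586, 571, 584 and 589 against 649.9, 608, 601 and 678. All oxi cell arrays were above all norm cell arrays, but the log2 change of 0.12 was not called (adjusted p = 0.245). The kinase adaptor Cdc37 had 1200, 1197, 1241 and 1135 against 1294, 1298, 1236 and 1323, with overlap (log2 change 0.11, adjusted p = 0.275). The immunophilins Fkbp4 and Fkbp5, which tune steroid receptors, had log2 changes of -0.18 and 0.04 without a call (adjusted p = 0.798 and 0.78), and the probe set that represents Fkbp4 lay near background in the cells.

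Among the regulators, Hsbp1, which binds the trimer of HSF1, had 714, 645, 652 and 647 in norm cell and 779.7, 759, 837 and 805 in oxi cell. The groups did not overlap (log2 change 0.26, SE 0.06, adjusted p = 0.0175). Its other probe set, also detected in the cells, overlapped between the groups and was not called (0.09, adjusted p = 0.631). The small heat shock proteins gave no call. Hspb1 (HSP25) was above background on 1 norm cell array and on 4 oxi cell arrays, with 11.2, 8.63, 20.2 and 3.66 against 10.7, 14.4, 18.8 and 17.8 (adjusted p = 0.413). Hspb8 had 13.2, 9.69, 9.45 and 15.5 against 3.82, 5.83, 3.74 and 1.24. It was the 1 member whose groups did not overlap in the direction of a lower signal (adjusted p = 0.092), and it was above background on 2 norm cell and on 0 oxi cell arrays. In the other direction 14 members did not overlap, where 6.38% of all probe sets did so upwards and 9.72% downwards.

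**Figure D3:**
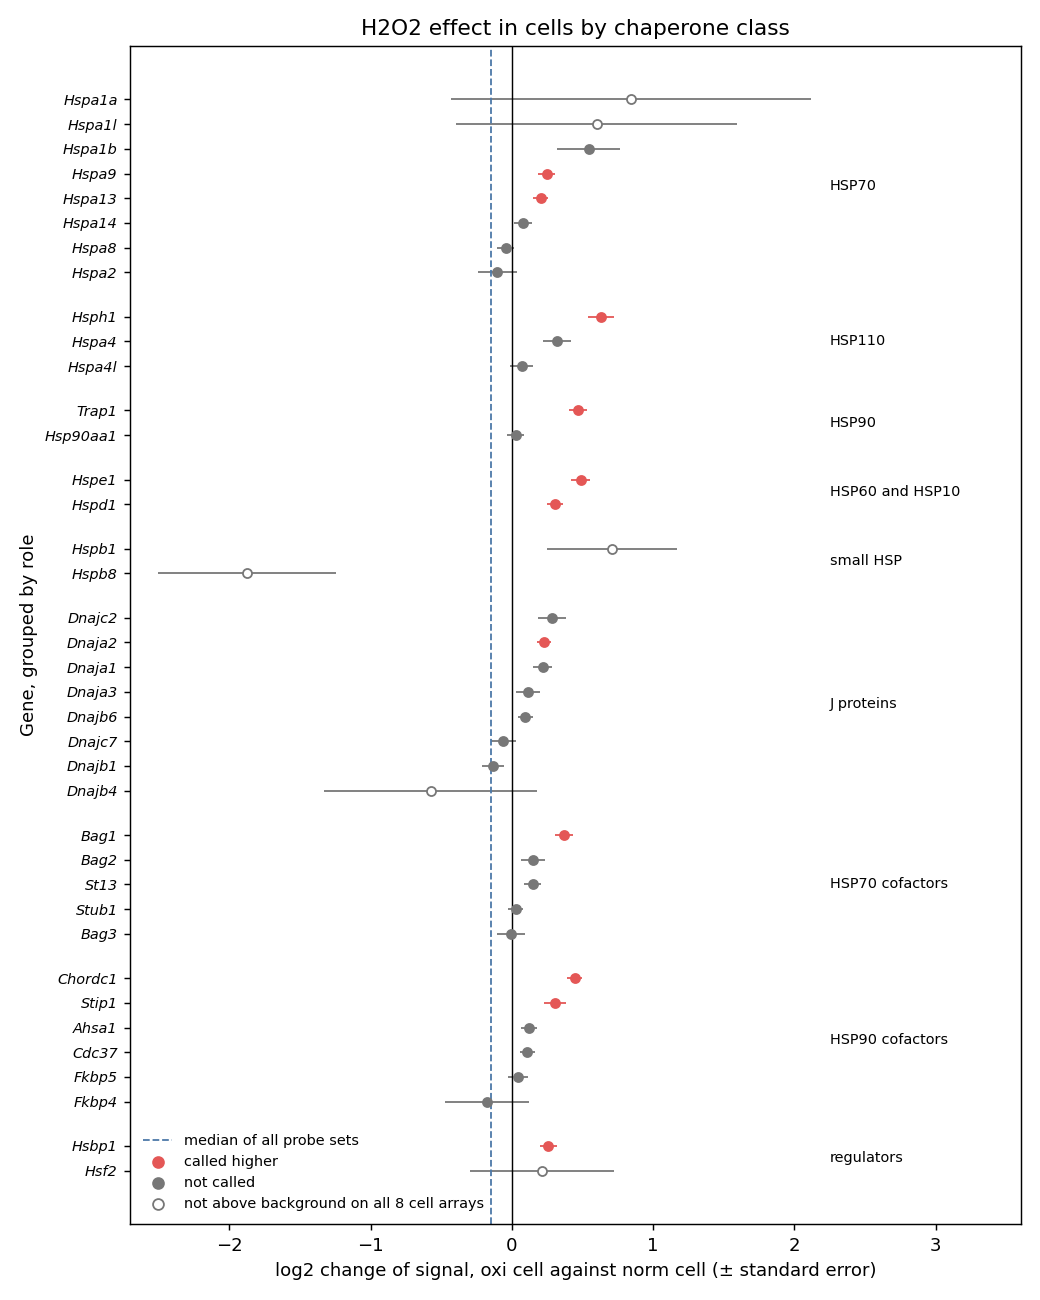
Log2 change of signal from norm cell to oxi cell with its standard error (4 arrays a group) for the 38 members by role, red where called higher, with open circles for members not above background on all 8 cell arrays and a dashed line at the median of all probe sets (-0.15). The 11 called members lie between 0.20 and 0.63 and come from 8 of the 9 roles, and the small heat shock proteins hold none.

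The counts held in direction but not in size under other settings. With quantile normalization, which sets the median change of all probe sets to 0.00, 10 members were called higher and 0 lower, 8 of them among the 11 (Hspa9, Stip1 and Hspa13 lost their call), and with scaling to the spiked controls, whose signal in oxi cell was 0.820 of that in norm cell and which moves this median to 0.14, 27 were called higher and 0 lower. Of all 45037 probe sets, 2075 were called higher and 1818 lower with quantile normalization, and 6325 and 469 with the spiked controls. With log2(signal + 100), Stip1 and Hspa13 were not called. Over all 96 probe sets of the members 23 were called higher and 2 lower, and 16 members had at least 1 probe set called higher. Without replicates 1, 2, 3 and 4 in turn, 9, 7, 10 and 5 members were called higher. Chordc1, Trap1, Hspe1, Hsph1 and Bag1 were called in all 4 of these fits, and without replicate 4 the log2 changes of Hspd1, Dnaja2, Hsbp1, Hspa9, Stip1 and Hspa13 were 0.27, 0.23, 0.24, 0.23, 0.25 and 0.18, not called. The methods' paired t-test and limma without a trend called 0 members and 0 probe sets at the adjusted threshold, with 13 and 7 members higher and 0 and 1 lower at an unadjusted p under 0.05. At that unadjusted level, 3064 and 2120 of all probe sets were higher and 4818 and 4891 lower.

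**Figure D4:**
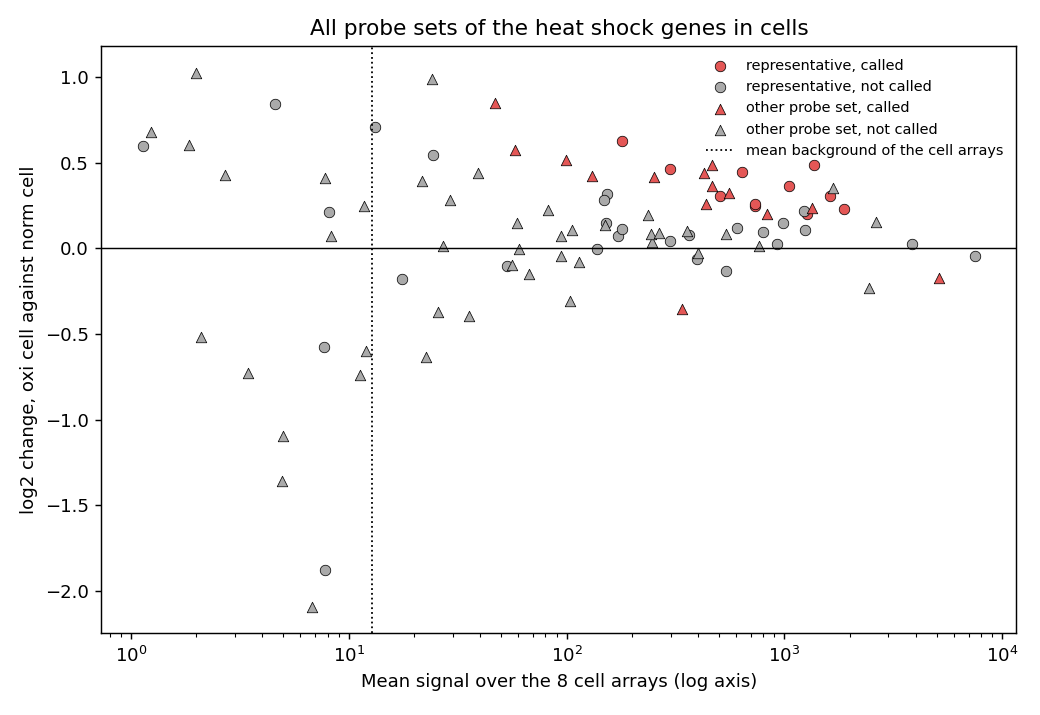
Log2 change from norm cell to oxi cell against the mean signal over the 8 cell arrays (log axis) for all 96 probe sets of the members, circles for the probe set that represents a gene and triangles for the others, red where called. The 23 called higher and the 2 called lower (one of Hspa8 and one of Dnaja2) all lie to the right of the mean background of the cell arrays (dotted line), and left of it the changes scatter widely without a call.

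Other genes of cytosolic and mitochondrial protein folding, such as prefoldin subunits, mitochondrial proteases and further J proteins, were counted beside the members. Of 46 such genes measured, 8 were called higher and 0 lower in oxi cell, with a median log2 change of 0.08. In the same libraries, 2 of 12 mast cell markers were called higher and 8 lower on the deposited scale, 2 and 5 with quantile normalization and 2 and 2 relative to the spiked controls, with a deposited summed signal of 47626 to 51991 on the norm cell arrays and 35322 to 42327 on the oxi cell arrays. The part of these and of the macrophage and neutrophil markers in the chaperone result was not tested.

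The next comparison asked whether the exosomes released under H2O2 differed in the same transcripts. Of the 38 members, 0 were called higher in oxi exo than in norm exo and 2 lower, Hspa8 and Dnaja2, where 0.0311% of all probe sets were called higher and 1.7% lower. Both were among the 7 members whose mean signal was above the exosome background, and of all probe sets of that kind 18.5% were called lower. At an unadjusted p under 0.05, 0 members were higher and 5 lower, where 1764 and 2625 of all 45037 probe sets were. For 22 members both exosome groups were below background on all arrays, for 7 only 1 group was, and 9 were measured in both.

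Hspa8 was above background on all 8 exosome arrays, with 3585, 3675, 2466 and 2665 in norm exo and 1764, 2478, 1553 and 879.6 in oxi exo. Within each replicate number the signal was lower in oxi exo, the groups overlapped only where 2478 stood beside 2466, and the log2 change was -0.96 (SE 0.20, adjusted p = 0.015 from limma). The probe set of the same gene that was called lower in the cells had 635, 583, 733 and 372 against 307, 187, 227 and 137, without overlap and with a log2 change of -1.45 (adjusted p = 0.00578). It was above background on 1 of the 4 oxi exo arrays, so that the size of this change is not well measured. A further probe set of Hspa8 was above background on all 4 norm exo arrays and on no oxi exo array (log2 change -1.24, adjusted p = 0.117). The remaining one was below background on all exosome arrays (0.76, adjusted p = 0.74). As in the cells, the probe set that represents Hspa8 can pick up near-identical sequences, so that its exosome values are uncertain. Dnaja2 had 1226, 1333, 771 and 882 in norm exo and 456, 790.3, 489.5 and 168 in oxi exo, the last of them below background. Its groups overlapped in replicate 2 of oxi exo, and the log2 change was -1.31 (SE 0.27, adjusted p = 0.0157). The probe set of Dnaja2 that was called lower in the cells lay near background here and had a log2 change of -0.08 (adjusted p = 0.972). Its remaining probe sets were below background on all exosome arrays and not called (log2 changes 0.63 and -1.31, adjusted p = 0.889 and 0.562). The probe set that represents Dnaja2 is also of a kind that can pick up near-identical sequences.

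Dnajb6, a J protein that holds back aggregation of polyglutamine chains, was the other member detected in both exosome groups. It had 514, 580.2, 663 and 571 in norm exo and 899.5, 736, 788 and 675 in oxi exo. All oxi exo arrays were above all norm exo arrays, the 1 member for which this was so, where 2.48% of all probe sets did the same, but the log2 change of 0.41 (SE 0.22) was not called (adjusted p = 0.571). With quantile normalization it was 0.96 and called (adjusted p = 0.0436). Bag1 had 294, 244, 194 and 280.1 against 138, 137, 75.9 and 91.4, and Stub1 had 365, 184, 134 and 293 against 22.3, 98.1, 66.1 and 91.3. These were the 2 members whose groups stood apart downwards, where 4.09% of all probe sets did, and neither was called (adjusted p = 0.169 and 0.125). Both were below background on all oxi exo arrays, and the difference against that background was at least 1.03-fold for Bag1.

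Trap1 had 377, 589, 504 and 669.6 in norm exo and 197, 439.9, 375 and 120.1 in oxi exo, with overlap and without a call (log2 change -1.07, adjusted p = 0.179). Hsp90aa1 had 436, 378, 310.3 and 307 against 405, 212, 445 and 406. Its level did not pass the test in either direction (log2 change -0.01, SE 0.29, adjusted p = 0.998). Cdc37 had 331, 303, 311 and 267 against 215, 268, 222 and 141 (log2 change -0.55, adjusted p = 0.595), with overlap by 1 array. The mitochondrial pair Hspd1 and Hspe1, called higher in the cells, had log2 changes of -0.72 and -1.52 in the exosomes and were not called (adjusted p = 0.64 and 0.515), and Hspe1 was above background on 1 of the 8 exosome arrays.

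The exosome calls rested on settings and arrays. Both were lost without the replicate block, without replicate 1 (log2 changes of Hspa8 and Dnaja2 -0.95 and -1.27), without replicate 4 (-0.75 and -0.95), with quantile normalization (0.04 and -0.80), with the methods' paired t-test and without a trend. Under quantile normalization the sign of Hspa8 therefore turned. With scaling to the spiked controls the change of Hspa8 was -0.95 and not called. In the same libraries 5 of 12 mast cell markers were called lower and 0 higher (3 and 0 with either other scaling), and their summed signal ranged from 4583 to 7278 in norm exo and from 1818 to 2776 in oxi exo. The 3' to 5' ratio of actin was 5.35 in norm exo and 3.86 in oxi exo. The part of these in the result was not tested.

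**Figure D5:**
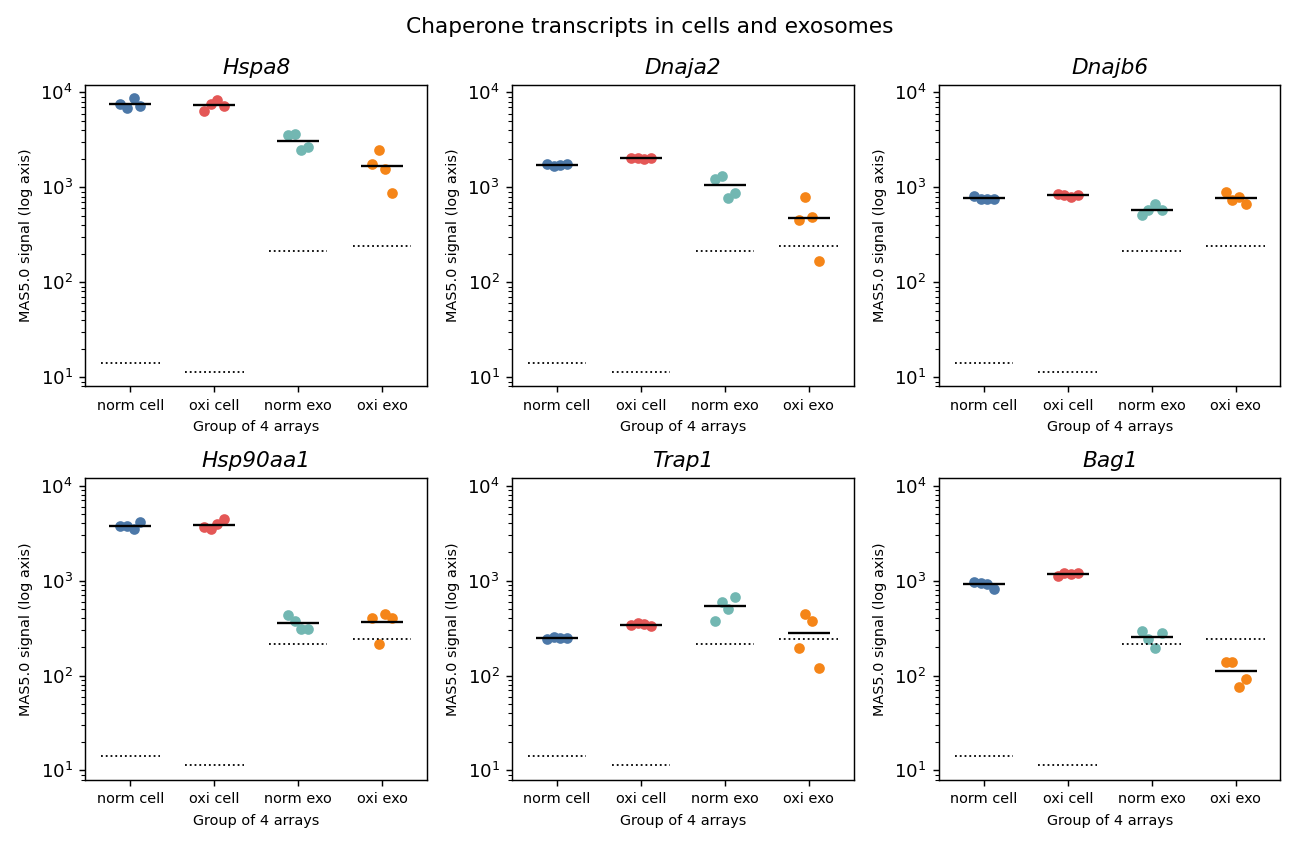
MAS5.0 signals (log axis) of 6 members on the 4 arrays of each group, with a solid bar at the mean and a dotted bar at the mean background of the group. Hspa8 and Dnajb6 are above the exosome background on all 8 exosome arrays, Dnaja2 on 7, and Bag1 is above background on 3 of the 4 norm exo arrays (194 to 294) and on no oxi exo array (75.9 to 138).

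Whether the response to H2O2 differed between exosomes and cells was tested on the difference of the changes within replicate numbers. Of the 38 members, 1 was called, Bag1, in the direction of a lower change in exosomes, and 0 in the other, where 1.47% and 0.0933% of all probe sets were. Bag1 had a log2 change of 0.37 in the cells and -1.22 in the exosomes, and the difference was -1.59 (SE 0.27, adjusted p = 0.0164 from limma). The fit gave the changes of cells and exosomes a common error, although the exosome arrays varied more. Its SE was below the 0.37 of the exosome change alone, which was not called (adjusted p = 0.169). The error of the difference may therefore be understated. Since Bag1 was below background on all 4 oxi exo arrays, its exosome change is known only as a bound, at least 1.03-fold lower, and the size of the difference was not measured. Leaving out any 1 replicate number ended the call, with adjusted p between 0.0641 and 0.102. Dnaja2 (difference -1.53, adjusted p = 0.0553) and Hspa8 (-0.92, adjusted p = 0.0828) did not pass. For Hspa8 the probe set called lower in both comparisons did, with -1.28 (adjusted p = 0.0133), a value that rests on 3 oxi exo arrays below background.

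Exosomes were then compared with the cells of the same condition. On the deposited scale, where the median log2 difference of all probe sets was 2.23 in normal conditions and 2.67 under H2O2, the medians of the members were -1.74 and -1.98. In norm exo 22 members were called lower than in norm cell and 9 higher, where 19.0% of all probe sets were called lower and 57.7% higher, and in oxi exo 22 were lower and 8 higher than in oxi cell, where 19.4% and 60.8% were. Among probe sets with a mean signal above background the shares called lower were 56.2% and 61.3%, and of the members of that kind 20 of 28 and 20 of 26 were. With quantile normalization the split in normal conditions was 8 higher and 23 lower, and with scaling to the spiked controls 1 higher and 31 lower. Of all 45037 probe sets, 8352 were higher and 9974 lower with quantile normalization, and 1306 and 22917 with the spiked controls. The groups did not overlap in 9 members upwards and 25 downwards in normal conditions, where 51.1% and 18.4% of all probe sets did so, and in 8 and 22 under H2O2, where 56.1% and 18.9% did.

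Among the members detected on both sides in normal conditions, Hsp90aa1 had the largest difference, with 3797 ± 248 (SD, n = 4) in the cells and 358 ± 61.6 in the exosomes, a log2 difference of -3.42 (SE 0.17, adjusted p = 1.59e-06 from limma). Hspa8 went from 7593 ± 762 to 3098 ± 621, a log2 difference of -1.31 (adjusted p = 0.000118), and under H2O2 from 7369 ± 826 to 1668 ± 658, a log2 difference of -2.23 (adjusted p = 9.67e-05). Other probe sets of Hspa8, also detected in norm cell and norm exo, differed by -3.18 and -3.27 (adjusted p = 2.05e-06 and 2.45e-06). The remaining one, below background on all exosome arrays, had 1.19 and was not called in normal conditions (adjusted p = 0.0652). The size of the difference of Hspa8 therefore depends on the probe set. Cdc37 differed by -1.98 and Dnaja2 by -0.76 in normal conditions, both called (adjusted p = 2.62e-05 and 0.00459). Dnajb6 was nearest to its level in cells, with 769 ± 31.0 against 582 ± 61.4 in normal conditions (log2 difference -0.41, adjusted p = 0.0677) and 822 ± 28.8 against 775 ± 95.4 under H2O2 (-0.09, adjusted p = 0.703), but with quantile normalization these differences were 0.93 and 1.66, or -4.47 and -4.43 when scaled to the spiked controls, so that its direction depends on the scale. This holds for the probe set that represents Dnajb6. At least 1 other of its probe sets was called lower in exosomes under either condition, and none of the others was detected in both exosome groups.

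Trap1 was the 1 member detected in norm exo that was called higher there, with 249 ± 3.29 in norm cell against 535 ± 125 in norm exo (log2 difference 1.07, SE 0.23, adjusted p = 0.00199), and it was lower by -2.99 when scaled to the spiked controls. Under H2O2 the difference was -0.46 (adjusted p = 0.234). The other 8 called higher in normal conditions (Hspa1a, Hspa1b, Hspa1l, Hspb1, Hspb8, Dnajb4, Fkbp4 and Hsf2) were not above background on all 4 norm exo arrays, and the background itself was 15.1 times higher in norm exo than in norm cell. Hsf2, below background on all norm cell arrays, was higher in norm exo than in norm cell by at least 10.3-fold against that background, which is less than the ratio of the backgrounds. Probe sets of 1 gene disagreed often here. Fkbp4 and Dnajb4 each had another probe set called lower in norm exo, with means of 256 against 95.9 and 95.2 against 20.2 (log2 differences -1.49 and -2.72, adjusted p = 0.00189 and 0.00331). In normal conditions 16 members had at least 1 probe set called higher, 28 at least 1 called lower and 9 both (Ahsa1, Dnaja3, Dnajb4, Dnajc2, Fkbp4, Fkbp5, Hsp90aa1, Hspa4 and Hspa4l), and under H2O2 15, 28 and 9.

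Many chaperones detected in cells were below background on all arrays of an exosome group, and for these only a bound can be given. In norm exo against norm cell, Hspa13 was lower by at least 5.48-fold, St13 at least 4.35-fold, Hsbp1 at least 3.10-fold, Ahsa1 at least 2.72-fold, Dnajb1 at least 2.61-fold, Chordc1 at least 2.53-fold and Stip1 at least 2.11-fold. Each was called lower in the limma fit (adjusted p of 0.000185 or less). That fit used the signals below background as they stand and does not test the bounds. Under H2O2 the largest bounds were at least 6.60-fold for Hspe1, 5.58-fold for Hspa13, 5.44-fold for Dnaja1, 4.86-fold for Bag1, 4.25-fold for St13 and 3.84-fold for Stub1. The bounds set the mean of the cells against the exosome background and leave out the spread between arrays. They are on the deposited scale and were not computed with another scaling. Of the 10 T lymphocyte markers, 2 were detected in each exosome group (Zap70 and Lat). The cells had Lat and Cd8a detected under both conditions, and Zap70 under H2O2 only. Cd8a was above background on no exosome array, with a mean signal of 18.8 in norm cell and 17.3 under H2O2. Cd3e, Cd3d, Cd3g, Cd4, Cd8b1, Cd2 and Cd28 were below background on all 16 arrays.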

How the data were processed

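RNA of 4 groups of 4 samples was hybridized to Affymetrix mouse arrays, whose table holds 45101 probe sets. The authors deposited 1 signal intensity per probe set and array, made with MAS5.0 per the methods and GCOS 1.2 per the labels; the mean of each array with 2% trimmed at each end was 100. After 64 controls were left out, log2 intensities of 45037 probe sets were fitted with limma 3.58.1 (R 4.3.3; lmFit, eBayes with a trend), for each comparison on its 8 arrays with the replicate number as a block, as the methods name a paired test. P-values underwent Benjamini-Hochberg adjustment across these. No sample was dropped or imputed, and the number of arrays limits the precision.

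Every array value is given for members called under H2O2 or detected in both exosome groups, and some other members were chosen after their values were seen. The members and gene lists were chosen with earlier results of these data known. Gene symbols came from the platform annotation, and 34945 probe sets carried 1 symbol, 932 several and 9160 none. The fits were tested on simulated data.

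A group above background on no array has only a bound: the mean of the brighter group against the mean, per array, of the higher of background and signal. Alternatives were no block, quantile normalization, scaling to 18 probe sets of spiked controls, probe sets above the median, log2(signal + 100), signals floored at background, the paired t-test of the methods, no trend, another probe set per gene (highest mean signal) and each replicate number left out. Python 3.11.15, pandas 2.3.3, numpy 2.4.6, scipy 1.17.1 and matplotlib 3.10.9 were used.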

Additional observations from a re-analysis of the deposited data

Results flagged for a closer look

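In norm cell, the signal of Hsbp1 was 714.4 on replicate 1, apart from the 645 to 652 of the other 3 arrays. Dnajb6 likewise had 815.4 on replicate 1 of norm cell, against 751 to 761 on the others. Both passed Dixon's test at 95%, which was run on 39 groups of 4 arrays and picks out about 5% of groups by chance. The response of Bag1 to H2O2 differed between exosomes and cells, with a log2 difference of -1.59 (adjusted p = 0.0164 from limma), a higher signal in all 4 oxi cell arrays and a lower one in all 4 oxi exo arrays. All 4 oxi exo arrays were below background for Bag1, so that the size of this difference was not measured. The fit gave cells and exosomes a common error, which may be too small for the exosomes.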

How the results depend on the processing

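The replicate numbers did not pair the arrays by the data, since deviations of same-numbered arrays correlated at -0.0164 to 0.0224. Without the replicate block, 11 members were called higher in oxi cell, 0 lower in oxi exo, 9 higher and 23 lower in norm exo against norm cell and 8 and 22 in oxi exo against oxi cell, and Bag1 kept its call. In oxi cell, 27 were higher with scaling to the spiked controls, 0 by the methods' paired t-test and without a trend, and 5 to 10 with 1 replicate left out, and 1 was lower with signals floored at background (probe sets at the floor on every array were not tested). In oxi exo, 1 was higher with quantile normalization and 1 with the floor, and the number lower was 0 with quantile normalization, the paired t-test and no trend, 1 with the spiked controls and 0 to 2 with 1 replicate left out. Higher in norm exo than in norm cell were 1 with the spiked controls and 15 with the floor, and higher in oxi exo than in oxi cell 0 with the spiked controls and 5 above the median. For the difference between exosomes and cells, 4 were higher with the floor, and the number lower was 3 with the spiked controls, 2 above the median, 2 with log2(signal + 100), 9 with the floor, 0 without a trend and 0 with any 1 replicate left out. The paired t-test was not run for this difference.

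Signs turned in cells for Hspa8 (0.18 with quantile normalization, 0.24 with the spiked controls, and -0.10 to 0.021 with 1 replicate left out), in exosomes for Hspa8 (0.041 with quantile normalization), Hspe1 and Hspa9 (0.16 and 0.17 with the floor), and in exosomes against cells for Dnajb6 (0.93 and 1.66 with quantile normalization) and Trap1 (-2.99 with the spiked controls in normal conditions, 0.11 with quantile normalization under H2O2). The cause was not tested. With the probe set of highest mean signal, 14 members were higher in oxi cell and 2 lower in oxi exo.

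Over all probe sets the calls in oxi cell came to 1941 higher and 2483 lower, against 6325 and 469 with the spiked controls, 2459 and 7085 with the floor and 0 and 0 by the paired t-test and without a trend, and 1130 to 1672 and 1363 to 2045 with 1 replicate left out. Those in oxi exo were 14 and 764, against 115 and 276 with quantile normalization, 8 and 582 with the spiked controls, 39 and 1000 with log2(signal + 100), 2829 and 1067 with the floor and 0 and 0 by the paired t-test and without a trend, where 1440 and 1667 were higher and 1985 and 2157 lower at an unadjusted p under 0.05. Higher in norm exo than in norm cell were 25977, against 8352 with quantile normalization, 1306 with the spiked controls and 7403 above the median, and lower 8538, against 9974, 22917 and, with the floor, 5263. The same in oxi exo against oxi cell were 27373 higher, against 9318, 1867 and 7741, and 8740 lower, against 22295 with the spiked controls and 5207 with the floor. For the difference of the effects 42 were higher and 662 lower, against 20 and 239 with quantile normalization, 12676 and 1738 with the floor, 0 and 0 without a trend and 0 to 22 and 6 to 543 with 1 replicate left out, and 112 higher without the block, 25 with the spiked controls, 85 above the median and 201 with log2(signal + 100). For exosomes, the background is 15.1 and 21.5 times that of the cells and limits what can be seen of most members.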
